A study of Mus musculus with 4 samples.

Results

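The 14 regions described here are imprinted control regions of the mouse genome, the stretches at Nnat, Gnas, Peg10, Mest, Peg3, Snrpn, H19, Kcnq1ot1, Plagl1, Grb10, Zrsr1, Dlk1-Meg3, Peg13 and Igf2r. They were taken as fixed windows of genome build mm9, each widened by 2 kb on both sides, and every CCGG site inside was a member. This gave 233 sites of 1594137, of which 197 lay in the stated windows and 36 in the 2 kb pads. The names come with the windows, since no mm9 gene annotation was used here. DNA methylation was read by HELP tagging, which sequences a tag next to each cut made at CCGG. HpaII is blocked where the CG in the middle of its site is methylated, and MspI cuts either way.

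All libraries came from MC1-ZE7, a mouse embryonic stem cell line of strain 129S6/SvEvTac at passage 31 that carries the fluorescent protein Emerald under the promoter of Zscan4c, a gene of the early embryo that only some cells of a culture express at a time. The cells were grown without feeders in serum and LIF, and sorted on Emerald fluorescence into an Emerald-high and an Emerald-negative fraction. Each fraction gave 1 HpaII and 1 MspI library, so no spread between cultures or sorts can be given. The question behind the comparison is how DNA methylation compares in cells with and without Zscan4 expression. Tags do not tell the parental chromosomes apart.

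An imprinted control region carries DNA methylation on the chromosome from one parent and lacks it on the other, a difference laid down in the egg or the sperm and kept after fertilisation. The methylated copy and the unmethylated copy then direct which parental allele of the neighbouring genes is transcribed. KRAB zinc finger proteins such as ZFP57 bind methylated control regions through TGCCGC and help keep the mark in embryonic stem cells. Most germline marks, 12 of the 14 here, come from the egg and mostly lie at promoters, and the 2 of H19 and Dlk1-Meg3 come from sperm and lie between genes.

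Promoter sequences of 2 members are shown because their CCGG sites could be tied to deposited positions without a genome of the same build. The spacing of CCGG in a RefSeq promoter (build GRCm38.p6) was searched for among all deposited sites, and each pattern occurred at 1 place in the genome, inside the window of its own region. Hymai is a noncoding transcript of the Plagl1 locus, on the plus strand at chr10:13090595-13090894, and its 3 CCGG sites are 190 and 74 bases apart. Zrsr1 is a gene that lies within an intron of Commd1, on the plus strand at chr11:22971755-22972004, and its 4 CCGG sites are 22, 39 and 97 bases apart. Capitals mark CCGG, the sequence both enzymes cut.
Hymai: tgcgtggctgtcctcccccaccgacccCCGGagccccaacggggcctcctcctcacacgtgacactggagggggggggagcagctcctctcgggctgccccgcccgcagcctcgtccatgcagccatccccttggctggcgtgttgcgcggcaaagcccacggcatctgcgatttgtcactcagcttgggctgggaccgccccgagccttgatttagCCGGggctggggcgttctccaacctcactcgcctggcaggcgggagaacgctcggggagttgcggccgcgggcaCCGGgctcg
Zrsr1: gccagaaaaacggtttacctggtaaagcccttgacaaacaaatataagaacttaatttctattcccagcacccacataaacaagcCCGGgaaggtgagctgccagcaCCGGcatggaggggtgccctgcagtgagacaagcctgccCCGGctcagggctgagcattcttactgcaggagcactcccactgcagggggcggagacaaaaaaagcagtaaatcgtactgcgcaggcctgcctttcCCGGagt

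The Hymai CCGG sites, at bases 28, 218 and 292, correspond to mm9 positions 12810429, 12810619 and 12810693 of chromosome 10. At the first of these, the Emerald-high libraries held 6 HpaII and 9 MspI tags, and the Emerald-negative libraries 19 and 8. At the other two, HpaII gave 4 and 13, then 3 and 5 tags, beside MspI tags of 10 and 3, then 0 and 1. HpaII thus cut all 3 sites in both fractions. The Zrsr1 sites, at bases 86, 108, 147 and 244, correspond to positions 22871841, 22871863, 22871902 and 22871999 of chromosome 11. HpaII tags rose along them from 1 to 3, 9 and 29 in Emerald-high cells and from 4 to 13, 21 and 40 in Emerald-negative cells. MspI tags followed the same order, with 0, 3, 7 and 11 in Emerald-high and 1, 2, 5 and 10 in Emerald-negative cells, so the order is shared by an enzyme that does not read methylation. The motif TGCCGC, searched on both strands, occurred once in the Hymai stretch and 0 times in the Zrsr1 stretch, and 11.6% of 32851 promoters of 300 bases in the table held it.

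To compare libraries of different depth, tags were divided by the library total, and the ratio of scaled HpaII to scaled MspI tags was taken. This ratio is 1 for the summed tags of all sites, not for a typical site. Confidence intervals are 95%, from Poisson counting error of the tags alone, with 1 tag added to each sum. Over all 14 regions, the HpaII sums were 1694 tags (Emerald-high) and 3211 (Emerald-negative), and the MspI sums 1390 and 1303. The ratio was 2.02 (1.88 to 2.17) in Emerald-high and 2.40 (2.25 to 2.56) in Emerald-negative cells. The ratio of the imprinted regions was therefore above that of the summed tags of all sites in both fractions, before any matching for density.

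The first comparison sets the regions beside sites of like CCGG spacing. Outside the regions the ratio climbed steeply with density, meaning the CCGG count, itself among them, up to 500 bp away in both directions. It went from 0.717 at isolated sites and 0.796 at sites with 2 to 4, to 2.36 at sites with 5 to 9 and 3.36 at dense sites (10 or more) in Emerald-high cells. In the stated windows of the imprinted regions it varied much less, at 2.56, 2.34, 2.20 and 2.35 for the same 4 classes in Emerald-high cells. The Emerald-negative values in the windows were 2.80, 2.43, 2.92 and 3.59, against 0.513, 0.748, 3.24 and 5.54 outside. Sparse sites of the windows were thus cut more than sparse sites elsewhere, and dense sites of the windows less than dense sites elsewhere.

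The sizes of these gaps exceeded counting error in 3 of the 4 classes. Isolated sites in the windows stood above isolated sites outside by 1.83 (1.43 to 2.24) on the log2 scale in Emerald-high and by 2.45 (2.07 to 2.83) in Emerald-negative cells, from 15 sites. Sites with 2 to 4 CCGG stood above by 1.55 (1.37 to 1.74) and 1.70 (1.53 to 1.87), from 63 sites. At 79 sites with 5 to 9 CCGG the gaps were -0.10 (-0.287 to 0.0866) and -0.15 (-0.320 to 0.0222), not separable from 0 at this depth. The 40 dense member sites, which lie in Gnas, Grb10 and Zrsr1, differed from other dense sites by -0.52 (-0.772 to -0.259) in Emerald-high and -0.62 (-0.868 to -0.379) in Emerald-negative cells. These level gaps do not depend on how a library is scaled, because both sets come from the same libraries. With sites of at least 10 tags in each MspI library alone, only 3 dense members were left, and their gaps of -0.14 (-0.753 to 0.466) and -0.13 (-0.642 to 0.375) spanned 0.

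**Figure D1:**
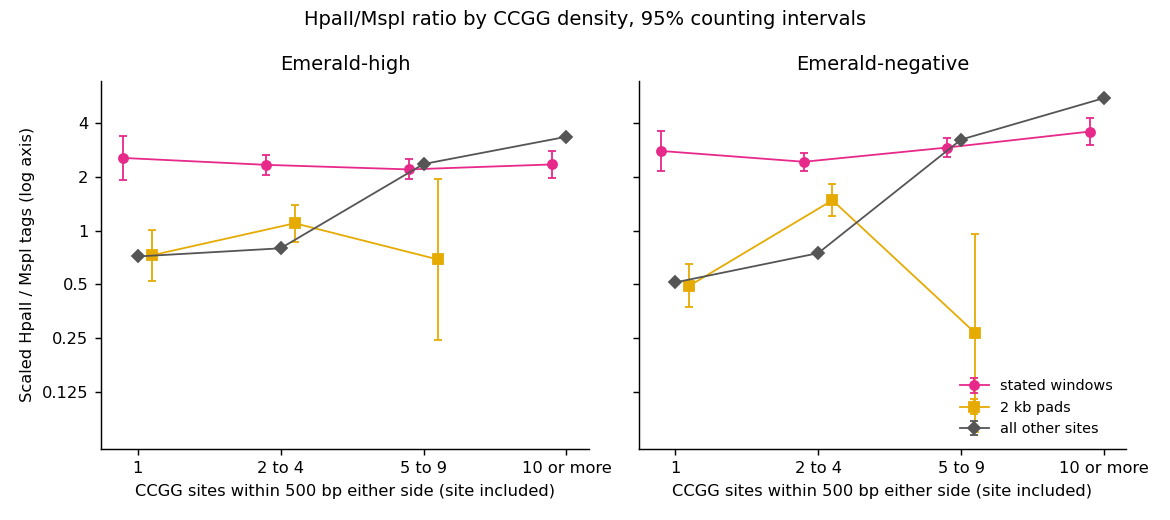
Ratio of scaled HpaII to MspI tags (vertical log axis) by CCGG density class for sites in the stated windows, in the 2 kb pads and elsewhere, 1 panel per fraction; bars are 95% counting intervals. The window values stay between 2.20 and 2.56 in Emerald-high cells while those of other sites run from 0.717 to 3.36.

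Cutting at sparse sites dropped at the edges of the windows. At sites with 1 to 4 CCGG, the windows had a ratio of 2.37 (2.12 to 2.67) in Emerald-high and 2.49 (2.24 to 2.77) in Emerald-negative cells, from 78 sites. In the pads, 34 such sites had 0.947 (0.781 to 1.15) and 0.986 (0.839 to 1.16). Pooled, they stood above sparse sites outside the regions (0.762 and 0.640) by 0.31 (0.0361 to 0.591) and 0.62 (0.390 to 0.856) on the log2 scale. This excess was 0.47 (0.123 to 0.810) and 0.985 (0.685 to 1.29) at the 22 pad sites with 2 to 4 CCGG. The 12 isolated pad sites differed from isolated sites outside by 0.02 (-0.453 to 0.497) and -0.06 (-0.464 to 0.342), not separable from 0. Between 2 and 5 kb from a window the ratios were 0.516 and 0.749, between 5 and 10 kb 1.02 and 1.00, between 10 and 20 kb 0.677 and 0.605, and between 20 and 50 kb 0.706 and 0.551. Pooled over 1 to 4 CCGG, the drop from window to pad was 1.33 (1.00 to 1.65) on the log2 scale in Emerald-high cells. It was 1.34 (1.06 to 1.62) in Emerald-negative cells, and these drops differed by -0.01 (-0.439 to 0.416). This pools unlike classes. At isolated sites the drop was 1.81 (1.19 to 2.44) and 2.51 (1.956 to 3.06), and at 2 to 4 CCGG 1.09 (0.699 to 1.48) and 0.72 (0.372 to 1.06). Between the fractions the class drops differed in opposite directions, by -0.70 (-1.53 to 0.139) and 0.37 (-0.148 to 0.890), neither separable from 0. Of 13 regions with pad sites, taken over all densities, the window stood above the pads in 12 in Emerald-high cells (not Dlk1-Meg3). In Emerald-negative cells it did so in 11 (not Mest or Snrpn). Peg3, Snrpn, Plagl1 and Zrsr1 each had 1 pad site. Several of these log2 gaps had intervals that included 0. Among them were 0.39 (-0.621 to 1.39) at Mest in Emerald-high and 0.20 (-0.641 to 1.04) at H19 in Emerald-negative cells.

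**Figure D2:**
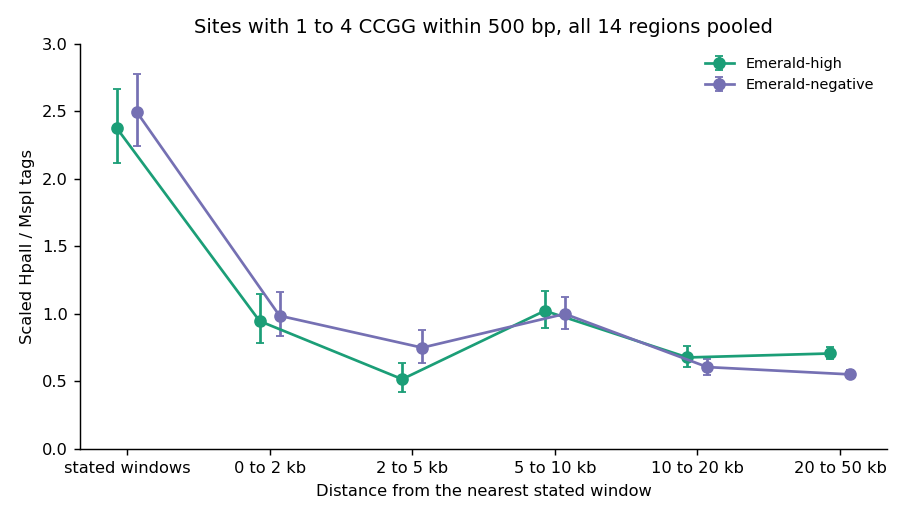
Ratio of scaled HpaII to MspI tags (vertical axis, linear) at sites with 1 to 4 CCGG within 500 bp, pooled over the 14 regions, by distance from the nearest stated window; bars are 95% counting intervals. The ratios fall from 2.37 and 2.49 in the windows to 0.947 and 0.986 in the adjoining 2 kb.

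Single sites that were deep enough repeated the contrast of windows with pads, but not the gap at dense sites. A site score of 0 means no HpaII tag, 50 equal scaled tags and 100 no MspI tag; it was taken at sites with at least 10 tags in each MspI library, which 28 of the 233 members reached. In the windows, 22 sites scored between 53.1 and 88.9 in Emerald-high cells (median 69.5) and between 55.4 and 88.1 in Emerald-negative cells (median 74.6). None of the 22 scored under 20 in either fraction, whereas 39.6% (Emerald-high) and 57.6% (Emerald-negative) of other covered sites did. Most of those others were sparse. Their shares were 38.5% and 61.4% at isolated sites and 44.0% and 60.3% at 2 to 4 CCGG. They fell to 23.2% and 29.6% at 5 to 9 CCGG and to 8.13% and 8.71% at dense sites. The windows had 8 and 3 covered sites in these 2 denser classes. The 6 covered pad sites had medians of 14.5 and 13.8, and 4 of the 6 scored under 20 in both fractions. With lower minima a few rarely cut window sites appeared: of 67 with at least 5 tags in each MspI library, 1 scored under 20 in the Emerald-high fraction and 2 did in the Emerald-negative one. Scores shift with the scaling: relative to dense sites outside the regions the window medians were 33.1 and 25.7, 4 of the 22 scored under 20 in Emerald-negative cells, and 76.8% and 87.2% of other covered sites did in Emerald-high and Emerald-negative cells.

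**Figure D3:**
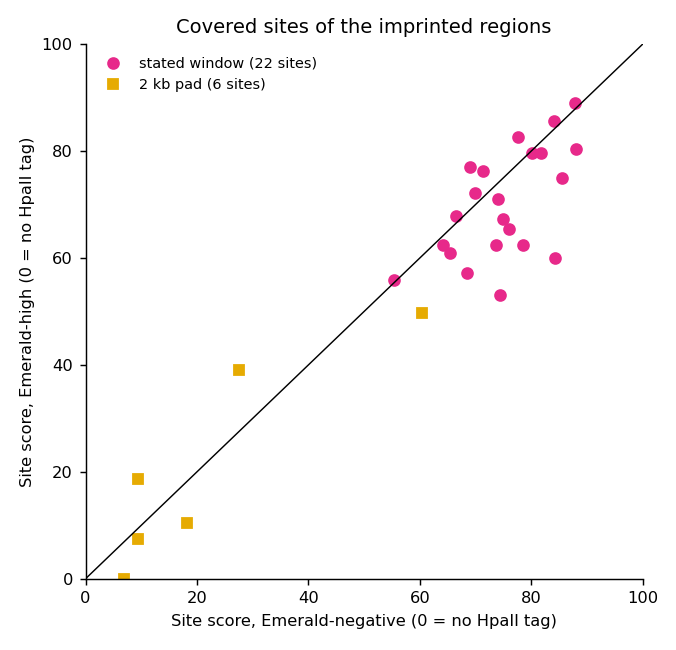
Site scores of the 28 covered member sites, Emerald-negative on the horizontal and Emerald-high on the vertical axis (0 is no HpaII tag), with the line of equal scores. The 22 window sites cluster at 53.1 or above on both axes, and 4 of the 6 pad sites lie under 20 on both.

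Window sites were also seldom without any HpaII tag. These shares need no depth minimum but move with library depth, which was lower in the Emerald-high HpaII library, so they are compared within a fraction. Of 181 window sites with at least 1 MspI tag in either library, 11 had no HpaII tag in Emerald-high cells (6.08%, Clopper-Pearson 3.07 to 10.6) and 5 in Emerald-negative cells (2.76%, 0.903 to 6.33). The pads had 8 and 6 of 34 such sites (23.5%, 10.7 to 41.2, and 17.6%, 6.76 to 34.5), and sites elsewhere 26.2% and 29.2%. Against sites of like density in Emerald-high cells, the windows stood apart only at 2 to 4 CCGG, with 6 of 61 (9.84%, 3.70 to 20.2) against 28.4% elsewhere. At isolated sites 1 of 14 (7.14%, 0.181 to 33.9) stood against 30.7%, at 5 to 9 CCGG 3 of 71 (4.23%, 0.880 to 11.9) against 10.9%, and at dense sites 1 of 35 (2.86%, 0.0723 to 14.9) against 5.61%, all within the interval. In Emerald-negative cells the windows stood apart in every class but the dense one. The shares there were 7.14% (0.181 to 33.9) against 35.3% at isolated sites and 3.28% (0.400 to 11.3) against 31.8% at 2 to 4 CCGG. At 5 to 9 CCGG the share was 2.82% (0.343 to 9.81) against 10.1%. At dense sites 0 of 35 (0 to 10.0) stood against 1.61%.

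Among the regions labelled as maternally methylated, Gnas had the most sites and tags. The label was given to the whole Gnas window, and the parental mark of its single parts was not tested. The Gnas locus encodes the stimulatory G protein alpha subunit and several transcripts of opposite imprinting. Its region (chr2:174107000-174129000) held 69 sites with 455 and 925 HpaII tags (Emerald-high, then Emerald-negative) beside 332 and 338 MspI tags, giving ratios of 2.27 (1.97 to 2.61) and 2.67 (2.35 to 3.02). Split at gaps over 1 kb, a choice made after its sites were seen, the region fell into 6 runs of sites, of which 2 held more than 5. The run at 174109048 to 174113316 held 21 sites and had ratios of 3.29 (2.61 to 4.16) in Emerald-high and 3.60 (2.92 to 4.44) in Emerald-negative cells. The run at 174120042 to 174126480 held 40 sites, 10 of them dense, and had lower ratios of 2.02 (1.65 to 2.46) and 2.49 (2.09 to 2.96), whose intervals do not overlap those of the first run in Emerald-high cells. At the site of the region with most MspI tags (called its most tagged site here and for the other regions), 174124504, HpaII gave 15 and 26 tags beside 9 and 25 MspI tags in Emerald-high and Emerald-negative cells.

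Zrsr1, which encodes a splicing factor related protein, was the other region with many tags. Its 24 sites (chr11:22869000-22877000) gave 335 and 627 HpaII tags and 233 and 199 MspI tags in Emerald-high and Emerald-negative cells, with ratios of 2.38 (2.01 to 2.81) and 3.06 (2.61 to 3.59). Its pad site at 22870483, the most tagged of the region, stood apart, with 17 and 18 HpaII tags beside 40 and 38 MspI tags. Grb10 encodes an adaptor that restrains growth factor signalling. Its 23 sites (chr11:11923000-11929000), 16 of them dense, gave 137 and 263 HpaII tags beside 117 and 96 MspI tags, and ratios of 1.94 (1.51 to 2.47) and 2.66 (2.11 to 3.35). Its most tagged site, 11923979, lies in a pad and had 12 and 20 HpaII tags beside 20 and 14 MspI tags.

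Plagl1 encodes a zinc finger transcription factor. Its 10 sites (chr10:12807000-12814000) gave 67 and 155 HpaII tags beside 72 and 58 MspI tags, with ratios of 1.54 (1.11 to 2.15) in Emerald-high and 2.58 (1.91 to 3.48) in Emerald-negative cells. Site 12810917 had its highest MspI counts, 14 and 11, beside 15 and 27 HpaII tags. Peg13, a noncoding RNA of the Trappc9 locus, gave 78 and 148 HpaII tags beside 99 and 103 MspI tags over 18 sites (chr15:72634000-72644000). Its ratios, 1.31 (0.974 to 1.76) and 1.40 (1.09 to 1.80), were the second lowest of the 14 regions in both fractions. They mix 2 kinds of site: the 15 window sites stood at 1.55 and 1.98, and the 3 pad sites, with 5 HpaII tags in each fraction beside 21 and 33 MspI tags, at 0.451 and 0.172. Its most tagged site, 72640310, had 21 and 45 HpaII tags beside 17 and 19 MspI tags.

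Nnat, which encodes the membrane proteolipid neuronatin, was the only region below a ratio of 1 in either fraction. Its 17 sites (chr2:157383000-157390000) gave 50 and 68 HpaII tags beside 102 and 106 MspI tags, with ratios of 0.820 (0.586 to 1.15) in Emerald-high and 0.629 (0.465 to 0.852) in Emerald-negative cells. The 6 pad sites gave 6 and 9 HpaII tags beside 51 and 50 MspI tags, ratios of 0.223 and 0.191. The 11 window sites gave 44 and 59 beside 51 and 56, ratios of 1.43 and 1.03, still the lowest window ratios of the 14 regions. Its most tagged site, 157384039, lies in a pad and had 1 and 2 HpaII tags beside 14 and 13 MspI tags.

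Peg3, which encodes a large zinc finger protein, gave 69 and 110 HpaII tags beside 50 and 49 MspI tags over 13 sites (chr7:6678000-6687000), ratios of 2.27 and 2.17. Its pad site 6678484, the most tagged, had 0 and 1 HpaII tags beside 5 and 17 MspI tags. Mest, which encodes an alpha/beta hydrolase fold protein, gave 79 and 141 beside 58 and 44 over 13 sites (chr6:30684000-30691000), ratios of 2.24 and 3.08. Its 6 pad sites had ratios of 2.03 (1.34 to 3.08) and 3.35 (2.23 to 5.03), beside 2.65 (1.51 to 4.63) and 2.44 (1.37 to 4.36) in its window, and its most tagged site, 30685294 in a pad, had 22 and 46 HpaII tags beside 25 and 7 MspI tags. Peg10, derived from a retrotransposon and needed in the placenta, was thinly tagged, with 24 and 45 HpaII tags beside 21 and 24 MspI tags over 7 sites (chr6:4695000-4701000), and ratios of 1.88 (1.06 to 3.34) and 1.80 (1.10 to 2.92). Its most tagged site, 4695358, had 4 and 3 HpaII tags beside 9 and 11 MspI tags. Snrpn encodes a small nuclear ribonucleoprotein, and its promoter is the control region of the Prader-Willi cluster. Its 5 sites (chr7:67145000-67152000) gave 79 and 115 HpaII tags beside 39 and 49 MspI tags, ratios of 3.31 (2.26 to 4.84) and 2.26 (1.63 to 3.15), the highest of the 14 regions in Emerald-high cells. Site 67149978 had 23 and 30 HpaII tags beside 9 and 12 MspI tags.

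At 2 members the control region is the promoter of a long noncoding RNA that silences its neighbours, Kcnq1ot1 and, within Igf2r, Airn. Igf2r encodes a receptor that clears insulin-like growth factor 2. Its 8 sites (chr17:12931000-12938000) gave 70 and 104 HpaII tags beside 51 and 49 MspI tags, ratios of 2.26 (1.58 to 3.23) and 2.05 (1.46 to 2.87). All of its HpaII tags came from the 6 window sites, and the 2 pad sites gave 0 in both fractions beside 5 and 9 MspI tags. Site 12935286 had 20 and 38 HpaII tags beside 11 MspI tags in each fraction. Kcnq1ot1 held 5 sites (chr7:150478000-150485000) with 29 and 77 HpaII tags beside 32 and 15 MspI tags, ratios of 1.505 (0.918 to 2.47) in Emerald-high and 4.76 (2.78 to 8.15) in Emerald-negative cells, the highest of the 14 in the latter. Its site 150481280 alone had 5 and 22 HpaII tags beside 11 and 3 MspI tags.

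Pooled over all densities, the 2 paternally methylated regions did not stand apart in level. The H19 control region binds the insulator protein CTCF on the unmethylated maternal copy and decides between H19 and Igf2. Its 10 sites (chr7:149763000-149771000) gave 82 and 185 HpaII tags beside 97 and 88 MspI tags, ratios of 1.40 (1.05 to 1.88) and 2.04 (1.58 to 2.63). Within its window, site 149767047 had 25 and 55 HpaII tags beside 33 and 29 MspI tags. Dlk1-Meg3, whose intergenic control region governs a cluster of noncoding RNAs, gave 140 and 248 HpaII tags beside 87 and 85 MspI tags over 11 sites (chr12:110762000-110771000), ratios of 2.65 (2.03 to 3.46) and 2.83 (2.21 to 3.61). HpaII tags were seen at all 11 of its sites in both fractions, and site 110764001 had 17 and 36 beside 11 and 17 MspI tags. Pooled, the paternally methylated regions had ratios of 2.00 (1.64 to 2.42) and 2.43 (2.04 to 2.90), and the 12 maternally methylated ones 2.02 (1.87 to 2.18) and 2.40 (2.24 to 2.57). The log2 gap between these groups was 0.02 (-0.284 to 0.320) in Emerald-high and -0.02 (-0.294 to 0.251) in Emerald-negative cells. The groups were not matched for density. Neither H19 nor Dlk1-Meg3 held a site with 5 or more CCGG, while most of the maternally methylated regions did.

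**Figure D4:**
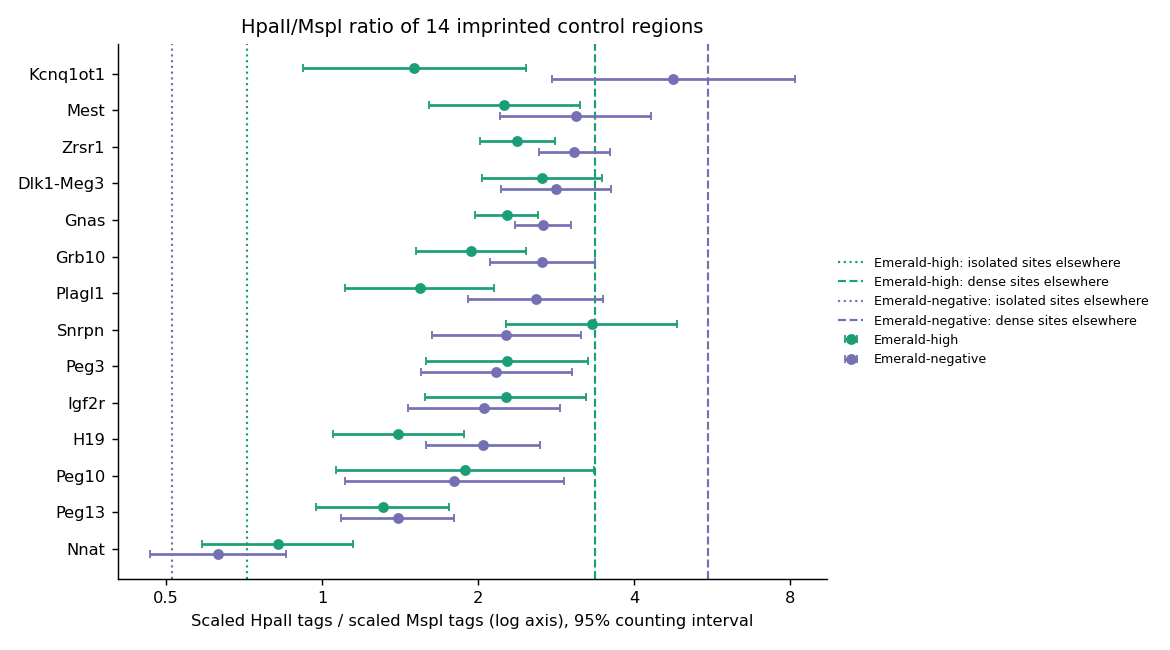
Ratio of scaled HpaII to MspI tags (horizontal log axis) for each of the 14 regions in both fractions, with 95% counting intervals; dotted and dashed lines mark isolated and dense sites elsewhere in the same fraction. All 14 points of each fraction lie between its 2 lines, and only Nnat lies below 1.

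In each fraction 14 of 14 ratios lay above that of isolated sites and 14 of 14 below that of dense sites elsewhere. Only 3 of the 14 regions hold dense sites, and a region's ratio mixes densities and pads, so this place between both levels is a description of mixed sites and not a comparison with like ones.

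The second comparison is between the fractions. Relative to library totals, HpaII cutting of the pooled regions was somewhat lower in Emerald-high cells, with a log2 HpaII/MspI difference (Emerald-high minus Emerald-negative) of -0.25 (-0.392 to -0.115). The HpaII libraries alone gave -0.17 and the MspI libraries 0.08, and the part of the MspI libraries in the value was not tested further. The sign rests on the scaling. Relative to dense sites outside the regions, which themselves stood at -0.72, the pooled difference was 0.47 (0.329 to 0.605). With each region left out in turn the value stayed between -0.28 and -0.23. At sites with at least 10 tags in each MspI library it was -0.19 (-0.440 to 0.0671), no longer separable from 0.

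Scaled to library totals, dense and isolated sites across the genome differed between the fractions in opposite directions. That scaling holds the difference over all sites near 0, so the opposite signs depend on it. Had member sites moved as sites of their class did elsewhere, the pooled difference would have been -0.16, which leaves -0.09 beyond density. No interval was computed for this remainder. The pooled difference had a standard error of 0.07 from counting, so -0.09 is not shown to differ from 0. By class, isolated members stood at 0.21 (-0.183 to 0.596) against 0.48 outside, and members with 2 to 4 CCGG at -0.14 (-0.355 to 0.0769) against 0.09. Members with 5 to 9 stood at -0.40 (-0.650 to -0.148) against -0.46, and dense members at -0.61 (-0.967 to -0.258) against -0.72. The gap to other sites was -0.23 (-0.445 to -0.0130) at 2 to 4 CCGG and -0.28 (-0.666 to 0.112) at isolated sites, and in the 2 denser classes it was 0.06 (-0.194 to 0.308) and 0.11 (-0.247 to 0.462). At window sites with 1 to 4 CCGG the difference was -0.07 (-0.297 to 0.156), against 0.25 (0.248 to 0.253) at such sites outside, a gap of -0.32 (-0.548 to -0.0944). This gap does not depend on the scaling. By class it was -0.61 (-1.17 to -0.0565) at isolated window sites and -0.15 (-0.395 to 0.101) at those with 2 to 4 CCGG, the latter not separable from 0. The pads stood at -0.06 (-0.421 to 0.304), and their gap to outside sites of -0.31 (-0.672 to 0.0534) did not clear counting error. By class the pad gap was -0.52 (-0.975 to -0.0623) at 2 to 4 CCGG and 0.08 (-0.540 to 0.706) at isolated sites. The gap of all members at 2 to 4 CCGG thus includes pads that stood further from outside sites than the windows did.

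Region by region, 9 differences lay below 0 and 5 above. The median was -0.17 (quartiles -0.46 and 0.07), beside 0.44 (-0.12 and 1.06) over 134728 tiles of 7 kb across the genome with at least 20 tags in each MspI library, and -0.53 (-0.74 and -0.32) over the 4912 of them with 10 or more dense sites. A two-sided Fisher's exact test on the tags of both enzymes was run on all tiles and the 13 regions with that depth in 1 table, with Benjamini-Hochberg adjustment, and a call also needed a 2-fold change. It compares the libraries, not the conditions. It called 0 of 13 regions, and 2 had an unadjusted p under 0.05. Among all tiles it called 2.07% higher and 0.471% lower, and among tiles with 10 or more dense sites 0.102% higher and 5.92% lower. Scaled to dense sites, it called 2 regions higher in Emerald-high cells: Snrpn, with a log2 difference of 1.27 (adjusted p = 0.00759, Fisher's exact test), and Nnat, with 1.10 (adjusted p = 0.0105, Fisher's exact test). With that scaling it called 29.6% of all tiles higher, so 2 of 13 is no larger a share than in the genome at large. Intervals lay wholly above 0 in 8 of 14 regions then, and in 50% of all tiles.

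By counting interval, 3 regions lay wholly below 0 and 0 above. Such intervals lay below 0 in 5.15% and above 0 in 15.3% of all tiles, and in 55.1% and 0.855% of tiles with 10 or more dense sites. The 3 regions were Kcnq1ot1 at -1.66 (-2.72 to -0.607), Plagl1 at -0.74 (-1.39 to -0.0999; adjusted p = 0.184, Fisher's exact test) and Zrsr1 at -0.37 (-0.700 to -0.0342; adjusted p = 0.204, Fisher's exact test). Kcnq1ot1 was too thin for the exact test, with 15 MspI tags in Emerald-negative cells, and its difference rests more on MspI (1.03) than on HpaII (-0.63). Without its most tagged site Kcnq1ot1 stood at -1.16 (-2.36 to 0.0399), an interval that includes 0. At Plagl1 the HpaII libraries moved by -0.45 and the MspI libraries by 0.30, and at Zrsr1 by -0.15 and 0.22. For Zrsr1 the density of its sites alone gave -0.39, which leaves 0.02, and for Plagl1 -0.36, which leaves -0.38. No interval was computed for these remainders. The Plagl1 difference had a standard error of 0.33 from counting, so its remainder is not shown to differ from 0. Scaled to dense sites, Zrsr1 turned to 0.35 and Plagl1 stood at -0.02.

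The other 11 regions had intervals that include 0. H19 stood at -0.54 (-1.10 to 0.0163), Mest at -0.46, Grb10 at -0.46, Gnas at -0.23, Peg13 at -0.10 and Dlk1-Meg3 at -0.09. Above 0 were Snrpn at 0.55 (-0.179 to 1.27; in its window alone 0.93, 0.133 to 1.72), Nnat at 0.38 (-0.271 to 1.03), Igf2r at 0.14, Peg3 at 0.07 and Peg10 at 0.07. In the HpaII libraries alone 10 regions were lower and 4 higher in Emerald-high cells, the 4 being Snrpn, Nnat, Igf2r and Peg3. The maternally methylated regions together stood at -0.25 (-0.396 to -0.0994) and the paternally methylated ones at -0.29 (-0.666 to 0.0916), a gap of 0.04 (-0.367 to 0.446). This gap was not matched for density. The thinnest tested region, Peg10, had an interval of -1.02 to 1.15, so a 2-fold change there was not detectable at this depth.

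**Figure D5:**
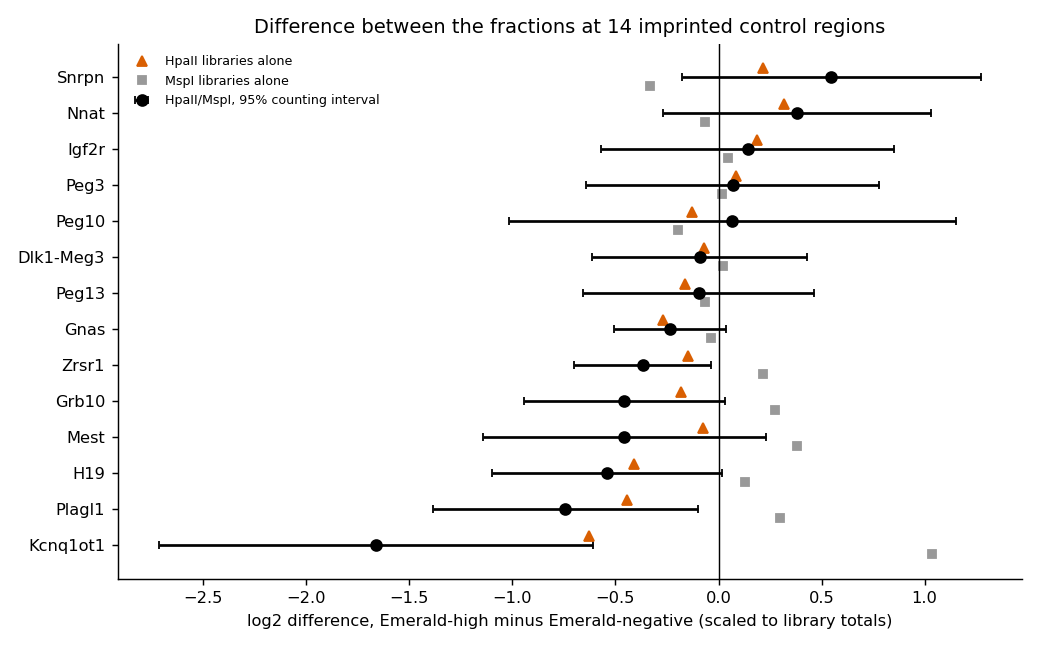
Log2 difference between Emerald-high and Emerald-negative cells (horizontal axis) for each of the 14 regions: HpaII/MspI with its 95% counting interval, and the HpaII and MspI libraries alone. The intervals of Kcnq1ot1, Plagl1 and Zrsr1 lie below 0, and at all 3 the MspI libraries moved to the opposite side from the HpaII libraries.

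No single member site was called. The exact test over all 218697 covered sites called 0.102% higher and 0.0297% lower in Emerald-high cells, and among the 28 covered members 0 had even an unadjusted p under 0.05. Emerald-high cells had the higher score at 10 of the 28 and the lower at 18, against 65.4% higher among other covered sites. The latter share falls with density, from 72.4% at isolated sites to 64.0%, 44.8% and 29.3% in the denser classes, where the windows had 1 of 2, 3 of 9, 3 of 8 and 1 of 3 higher. The largest fall was at Zrsr1 (22872174), from 84.3 in Emerald-negative to 60.1 in Emerald-high cells, where HpaII gave 53 and 10 tags beside 13 and 12 MspI tags (p = 0.0656, Fisher's exact test on the libraries; adjusted p = 0.625). The score fell by 21.2 at Peg13 (72641105), fell by 16.1 at Gnas (174124856), fell by 11.3 at H19 (149767047) and fell by 11.3 at Gnas (174111093). The largest rises were at pad sites of Zrsr1 (22870483), from 27.6 to 39.0, and Gnas (174127815), from 9.49 to 18.6. In the windows the largest were 8.10 at Gnas (174123937), 5.02 at Zrsr1 (22872127) and 4.96 at Dlk1-Meg3 (110764001). None of these sites passed the test.

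The HpaII totals were 5662614 tags for Emerald-high and 9535691 for Emerald-negative cells, and the MspI totals 9372711 and 9307616. Of the 233 member sites, 8 had no tag in any library, 215 had an MspI tag, 195 had HpaII tags in both fractions, and 0 had a fractional count. Intervals cover counting error only, and tags without molecular identifiers may be copies of one molecule.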

How the data were processed

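HELP tagging libraries of 4 kinds, 1 each, were analysed. The deposited files hold estimated counts of tags per CCGG position in 2 parts and their sum, not scaled to depth, with the library total per the file headers; the sum was used. Positions are on mm9, per the submitters' processing notes. How tags were aligned, and what fractional counts stand for, is not stated in the labels or headers.

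Sites were assigned to the 14 windows by position. Tags were scaled to library totals, ratios took a pseudocount of 1 tag per sum, and Poisson intervals used the log scale. Counts were rounded to whole tags for Fisher's exact test, whose null odds came from the totals and which was checked on simulated data. The score is 100 × (2/π) × arctan(HpaII/MspI). A call needed an adjusted p under 0.05 and a 2-fold change. Named sites were, per region, the one with most MspI tags, any called site, the 5 largest rises and falls in score, and sites in a matched promoter. Members, lists and tests were chosen with earlier results of these data known. Distance classes, Gnas runs and the shares of sites without HpaII tags were added after the files were seen. Tests used scipy 1.17.1 and numba 0.67.0 under Python 3.11.15, tables pandas 2.3.3 with numpy 2.4.6, and plots matplotlib 3.10.9.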

Additional observations from a re-analysis of the deposited data

Results flagged for a closer look

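At 3 regions and in the pooled value, the counting interval of the difference between the fractions lay wholly below 0 while the 2 enzymes' libraries shifted to opposite sides. There is no replicate to check it. On the log2 scale the HpaII/MspI difference of Emerald-high from Emerald-negative cells was -0.25 pooled, -1.66 at Kcnq1ot1, -0.74 at Plagl1 and -0.37 at Zrsr1. The MspI libraries alone gave 0.08, 1.03, 0.30 and 0.22.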

How the results depend on the processing

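Scaling moved the comparison of the fractions most. Relative to dense sites outside the regions, the pooled difference turned to 0.47, that of maternally methylated regions to 0.47, that of Zrsr1 to 0.35, and that of paternally methylated regions stood at 0.43. Then 0 regions had an interval below 0, 8 had one above, 2 were called, 4 window sites scored under 20 in Emerald-negative cells, and the median score difference in the windows was 8.64. At sites with at least 10 tags in each MspI library the pooled interval included 0 (-0.19, -0.440 to 0.0671); each region left out gave -0.28 to -0.23. The log2 gap of windows to pads over all densities, 1.31 (Emerald-high) and 1.565 (Emerald-negative), was 1.22 and 1.556 without the most tagged sites; scaling and whole counts cannot move it, and the gap at 1 to 4 CCGG was not recomputed. Which regions had an interval below 0 also changed: 5 with the Emerald-negative HpaII library thinned (H19 and Grb10 joined), Kcnq1ot1 and Zrsr1 without Plagl1 with the first part of each count, 1 with the second part (H19, none of the 3 named), Gnas in place of Kcnq1ot1 without the most tagged sites, Gnas and H19 in place of Zrsr1 with HpaII alone, and 0 with sites of at least 10 tags in each MspI library, where dense members stood at -0.14 and -0.13 against dense sites elsewhere. Without padding, 1 region had an interval above 0. With at least 5 MspI tags in each library, 1 (Emerald-high) and 2 (Emerald-negative) window sites scored under 20, and with 10 tags over both libraries 1 and 3. The causes were not tested. No member count is fractional, so whole counts repeat the differences of the regions, and pooling the MspI libraries is the same as HpaII alone. The alternatives for parental groups and for windows against pads were chosen after seeing the data. No paired analysis was possible because each combination had 1 library.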
